A study of Mus musculus with 5 samples.

Results

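Marker genes of neutrophils, monocytes and macrophages were examined in cultured mast cells of 2 genotypes. The set was a list of 36 genes that mark these cells in mouse blood and tissue, with 17 neutrophil, 6 monocyte and 13 macrophage genes. A row whose symbol equals the listed one was found for 33 of the 36 among the 25549 rows of a single results table. Chil3, the chitinase-like protein Ym1, and Adgre1, the macrophage surface protein F4/80, were found only under their older symbols Chi3l3 and Emr1 and are given apart. Timd4, a phosphatidylserine receptor of resident macrophages, was matched to no row and was not analysed here.

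There were 3 samples from Cpa3-Cre;miR-9∆fl/∆fl mice, called the miR-9 line below, and 2 control samples from Cpa3-Cre mice. All 5 were mast cells cultured from C57BL/6 bone marrow, the mice being matched for age and sex across genotypes per the design text, with no age given. The culture lasted 6 to 8 weeks with interleukin-3 at 50 ng/mL, cells received no treatment, and rRNA-depleted total RNA was sequenced in 50-base read pairs to about 70000000 reads a sample, per the labels. Both genotypes carry Cre under the promoter of Cpa3, a mast cell carboxypeptidase gene that is also active in basophils, and no label says in which direction the recombined allele moves miR-9. Whether the samples of a genotype are separate mice or cultures is stated nowhere in the labels.

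Neutrophils, monocytes and macrophages arise in bone marrow from the same myeloid progenitors as mast cells. Neutrophils store antimicrobial proteins in granules that are filled in sequence, azurophil granules first and specific and gelatinase granules later. Monocytes and macrophages depend on signals through the receptor Csf1r and carry receptors for the uptake of microbes, dying cells and lipoproteins. Marrow cultures kept in interleukin-3 lose most of these cells over the weeks in which mast cells grow out, so their transcripts are commonly read as a sign of other cells in a mast cell culture.

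What was examined here is a ratio and not a level. The authors' deposited table lists for each gene the log2 ratio of the miR-9 line to Cpa3-Cre, called the log2 fold change here, with or without a p-value. A further 5 columns, named for libraries that no label mentions, were not used, so the level of each marker, its spread between libraries and the depth behind it were not analysed here. The presence or absence of any cell type was likewise not examined. In bulk RNA, fewer cells of a type and less RNA per cell cannot be told apart.

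Most of the marker genes had no p-value. Of the 33 markers, 29 were given a fold change and left without a p-value by the authors' deposited table, where 5.78% of all rows (1478 of 25549) were in that state. Among the neutrophil markers 15 of 16 lacked one, among the monocyte markers 5 of 6 and among the macrophage markers 9 of 11. The table does not say why a row has no p-value, and the reason was not tested.

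**Figure D1:**
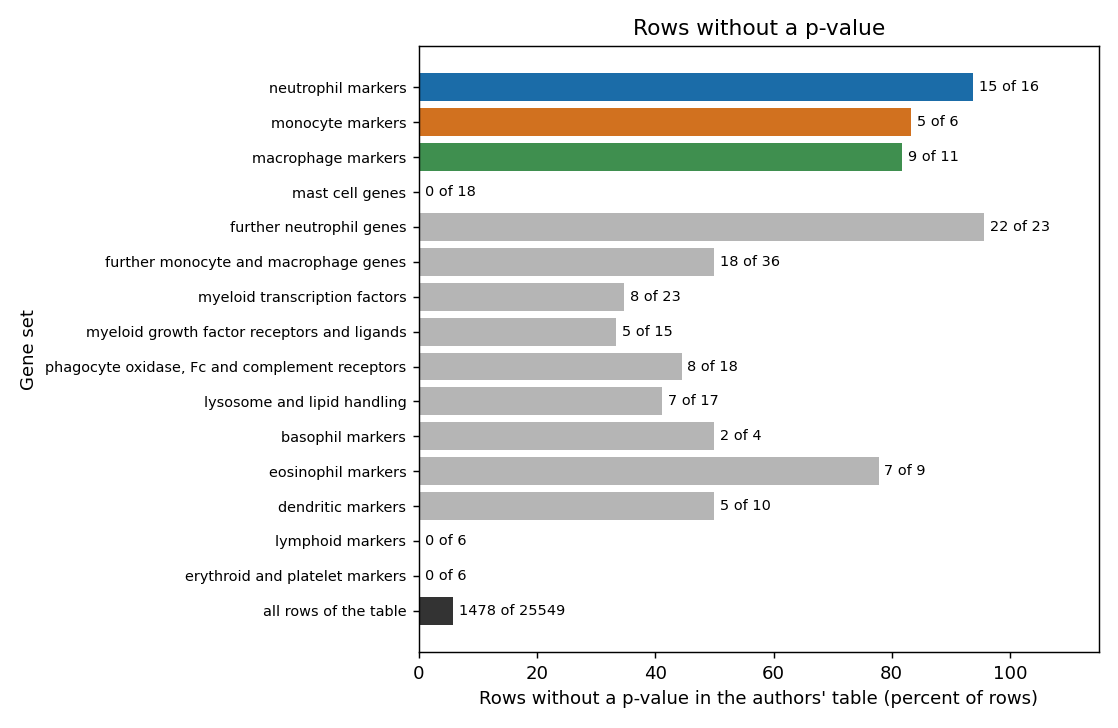
Percent of rows that the authors' deposited table leaves without a p-value (horizontal axis) for the 3 classes of marker genes, 12 other gene lists and all rows; the numbers beside the bars are rows without a p-value and rows in the set. The 3 classes of markers lie above 80%, the mast cell genes at 0 of 18 and all rows at 5.78%.

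Direction was nearly uniform and sizes were small. Of the 33 markers, 32 had a negative log2 fold change, lower in the miR-9 line, according to the authors' deposited table, and Cx3cr1 alone had a positive one. Negative values were also the majority outside the set, at 60.7% of all rows, 75.4% of all rows without a p-value and 59.8% of rows with one. Genes of the same cell type can rise and fall together, so the shared sign is not a count of independent results. Whether it rests on a single library was not analysed here. For the 29 markers without a p-value the median log2 fold change was -0.023, with sizes between 0.00051 and 0.70. Over all 1478 rows without a p-value the median was -0.11. No source used here says whether the deposited fold changes were shrunken towards 0, which pulls scarce or variable genes closest to it.

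**Figure D2:**
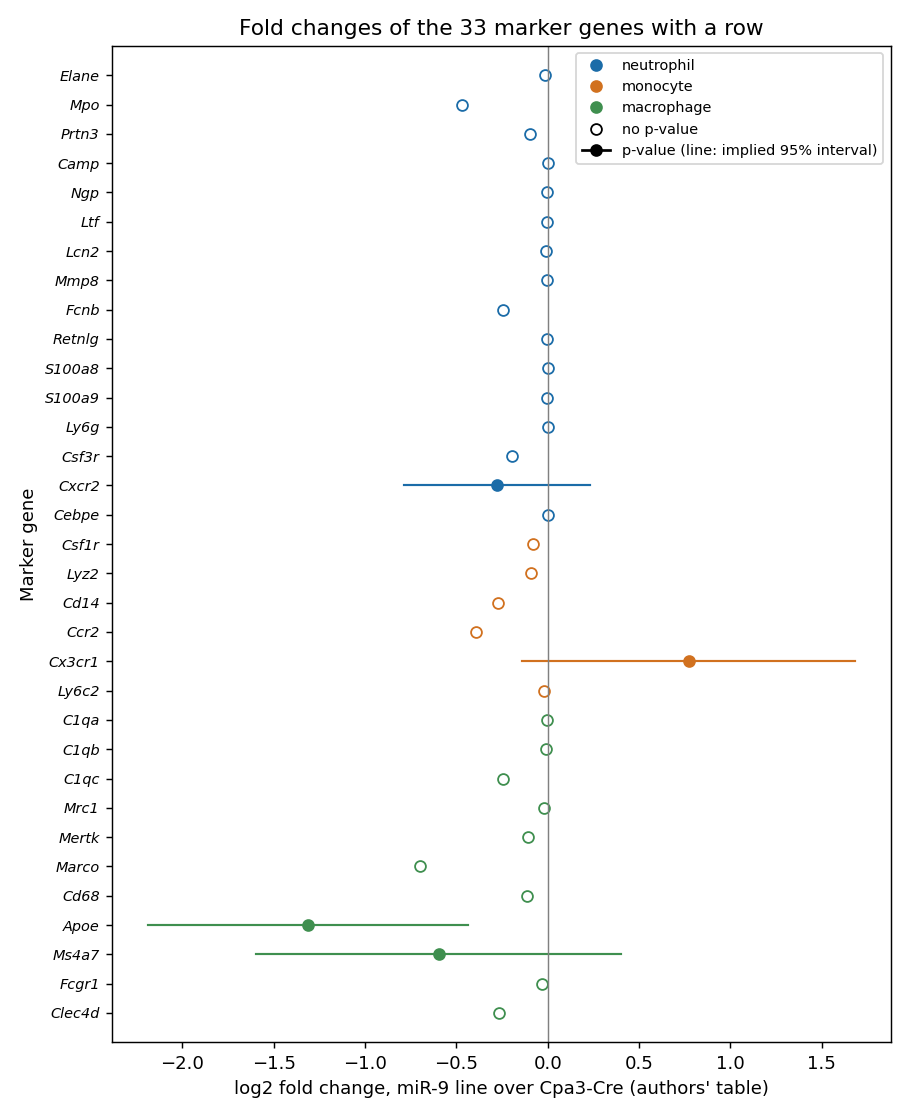
Log2 ratio of the miR-9 line to Cpa3-Cre (horizontal axis) for each of the 33 marker genes with a row, ordered by role. Open circles have no p-value and filled circles have one, with a line for the 95% interval implied by the deposited p-value; 32 of 33 values are below 0, and those under 0.01 in size are drawn too close to the line at 0 to be told from it.

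Among the marker classes, the neutrophil markers lay closest to 0. Their 15 rows without a p-value had a median size of 0.0035 on the log2 scale, against 0.20 for all rows without a p-value. A size under 0.01, a limit chosen after the values were seen, was found for 9 of these 15 rows, against 7.37% of all rows without a p-value and 2.16% of rows with one. Of the 14 monocyte and macrophage markers without a p-value, 1 was that small.

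**Figure D3:**
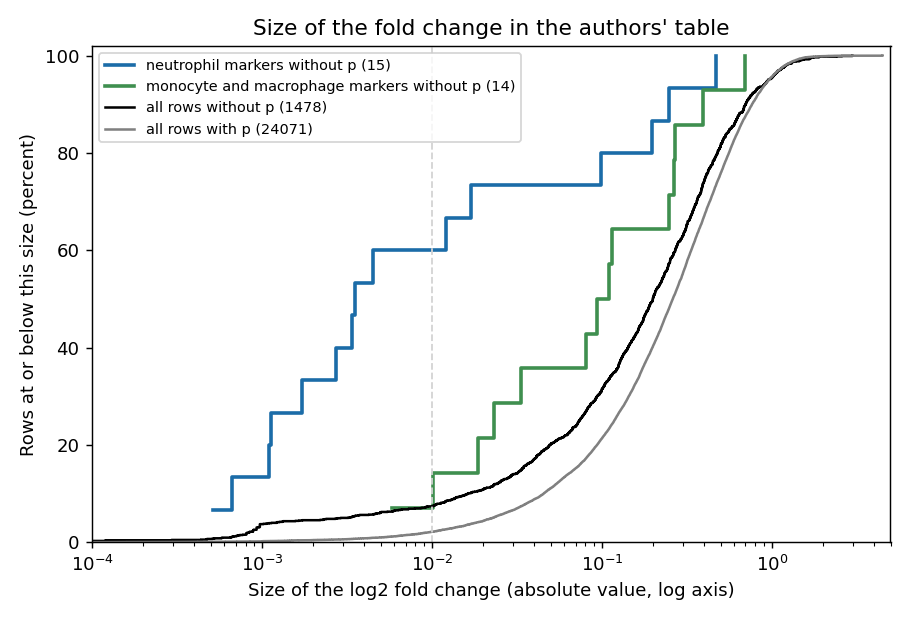
Cumulative percent of rows (vertical axis) by fold change size, the absolute log2 value of the authors' deposited table (horizontal log axis). The curve of the 15 neutrophil markers without a p-value reaches 60% before the dashed line at 0.01, where all 1478 rows without a p-value are at 7.37%.

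Azurophil granule genes, the earliest of the granule series, spread from near 0 to the lowest value of the neutrophil set. Mpo encodes myeloperoxidase, which makes hypochlorous acid, and was listed at -0.47 in the authors' deposited table, 1.39-fold lower in the miR-9 line, with no p-value. Prtn3, the gene of proteinase 3, was listed at -0.099 and Elane, the gene of neutrophil elastase, at -0.017 in the same column of the authors' deposited table. Prtn3 and Elane are neighbours on chromosome 10, 3137 bases apart with no other row between them, at 79874476 to 79883174 and 79886312 to 79888216. Prtn3 shares 159 exonic bases with BC005764 on the opposite strand, which was listed at -0.19 (p = 0.571) in the authors' deposited table, and whether counting used strand is not given.

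The fold changes listed for genes of specific and gelatinase granules and their secreted products were nearly all close to 0. Without a p-value or a level behind it, such a value does not show that the genotypes were equal. Camp, the cathelicidin gene, was listed at -0.00051, Ngp, the neutrophilic granule protein gene, -0.0027 and Ltf, the gene of the iron-binding lactoferrin, -0.0034 in the authors' deposited table. These 3 genes lie near each other on chromosome 9, Camp starting at 109847375 and Ltf ending at 111042766, with 12 and 17 other rows between them. Mmp8, neutrophil collagenase, was listed at -0.0035, Retnlg, a resistin-like secreted protein, at -0.0045 and Lcn2, the siderophore-binding lipocalin, at -0.012 in the authors' deposited table. Fcnb, a ficolin that recognises microbial sugars, stood apart at -0.25 in the authors' deposited table. None of the 7 rows had a p-value. Under its older symbol Chi3l3, Chil3 was listed at -0.013 in the authors' deposited table, also without a p-value.

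S100a8 and S100a9, whose products pair as the cytosolic protein calprotectin, were listed at -0.00067 and -0.0017 in the authors' deposited table. They are neighbours on chromosome 3, 22597 bases apart with no other row between them. Ly6g, the surface antigen by which mouse neutrophils are sorted, was listed at -0.0011 and Cebpe, the transcription factor C/EBP epsilon that drives specific granule genes, at -0.0011 in the authors' deposited table. Reads of Ly6g can be shared with its relative Ly6c2, so both values are uncertain. Csf3r, the receptor of granulocyte colony-stimulating factor, was listed at -0.20 in the authors' deposited table. Cxcr2, a receptor of neutrophil chemokines, was the 1 neutrophil marker with a p-value, listed at -0.28 with p = 0.284 by the authors' deposited table. Its Benjamini-Hochberg adjusted p over all 24071 rows with a p-value was 0.859.

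Among the monocyte markers, Cx3cr1 differed from the others in sign. Cx3cr1, the fractalkine receptor of patrolling monocytes and resident macrophages, was listed at 0.77 in the authors' deposited table, 1.71-fold higher in cells of the miR-9 line (p = 0.0970). The adjusted p was 0.728, so the difference did not pass. If the deposited p-value is that of a two-sided Wald test, which the sources do not state, the standard error implied for Cx3cr1 is 0.46 and the 95% interval -0.14 to 1.68. The row spans 119901616 to 120068283 on chromosome 9, a far longer stretch than its 3742 exonic bases, and 5 other rows lie inside or across it without sharing an exonic base. Ccr2, the chemokine receptor of inflammatory monocytes, was listed at -0.39 in the authors' deposited table without a p-value. Cd14, a co-receptor for bacterial lipopolysaccharide, was listed at -0.27, and Lyz2, the lysozyme gene of myeloid cells, at -0.094 in the authors' deposited table. Csf1r, the receptor of macrophage colony-stimulating factor, was listed at -0.080 and Ly6c2, the surface antigen of inflammatory monocytes, at -0.023 in the authors' deposited table. Csf1r shares 871 exonic bases with Hmgxb3 on the opposite strand, which was listed at -0.16 (p = 0.399) in the authors' deposited table.

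In the macrophage class, Apoe had the largest difference of the whole set. Apoe encodes apolipoprotein E, a lipid carrier that macrophages secrete, and it was listed at -1.31 in the authors' deposited table, 2.49-fold lower in cells of the miR-9 line (p = 0.00326). The adjusted p was 0.190, so Apoe did not pass over all genes, and 412 genes had smaller p-values. Under the same assumption of a Wald test the standard error is 0.45 and the 95% interval -2.19 to -0.44. Apoe lies on the minus strand of chromosome 7 from 19696109 to 19699166 with 6 exons, and no other row overlaps it. Ms4a7, a membrane protein of macrophages, was listed at -0.60 in the authors' deposited table (p = 0.240), with an adjusted p of 0.844 and an implied interval of -1.60 to 0.40.

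The other macrophage markers had no p-value. Marco, a scavenger receptor for bacteria, had the largest size among them at -0.70 in the authors' deposited table, 1.62-fold lower in the miR-9 line. Under its older symbol Emr1, Adgre1 was about as low, at -0.71 in the authors' deposited table. Clec4d, a lectin receptor for fungal and mycobacterial surfaces, was listed at -0.26 and Cd68, a lysosomal glycoprotein, at -0.11 in the authors' deposited table. Mertk, the receptor tyrosine kinase for dying cells, was listed at -0.11, Fcgr1, the high-affinity receptor of immunoglobulin G, at -0.034 and Mrc1, the mannose receptor, at -0.019 in the authors' deposited table. The 3 chains of C1q, the recognition part of the classical complement pathway, are encoded side by side on chromosome 4 with no other row between them. C1qc was listed at -0.25, while C1qb at -0.010 and C1qa at -0.0058 lay near 0 in the authors' deposited table, so the 3 neighbours had fold changes of unequal size.

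Over the whole set, 0 of the 4 markers with a p-value passed at an adjusted p under 0.05, where 0.411% of the 24071 rows with a p-value did. At an unadjusted p under 0.05 there was 1 marker, Apoe, where 7.92% of those rows were under it. With 4 markers tested, the counts are too few to be read against these shares.

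The recombined allele carries the name of miR-9, so the markers were searched for sites of this microRNA. The mature sequence of miR-9-5p, the same at its 3 loci, is given from RefSeq (GRCm38.p6) with the seed, bases 2 to 8, in capitals.
miR-9-5p: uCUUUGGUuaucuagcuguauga
In the longest GENCODE M21 3' untranslated region of each gene, the complement of the seed was found in 2 of 33 markers, where 13.2% of 16525 genes in the table held it. The untranslated regions of the markers were short, with a median of 271 bases against 1061 bases over all genes, and a longer region has more letters in which to match. The 2 sites are shown as the only ones in the set, with the match to the seed in capitals.
Cx3cr1 site, chr9:120049498-120049524, minus strand: aaattgagttACCAAAGtgggagcctg
Fcgr1 site, chr3:96284153-96284179, minus strand: ggagacctatACCAAAGggatcttgca
Cx3cr1, with its site 1756 bases into the untranslated region, was the marker with a positive value, and Fcgr1 stood near 0. Apoe, Marco, Mpo and Ms4a7 held none. A seed match is a description of the letters and not a measured site.

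Letters of the PU.1 and C/EBP motifs were found in part of the marker promoters. The genes were listed as markers of myeloid cells, so these shares are a description only. RefSeq promoter windows of 300 bases, 250 before to 50 after a transcript start on GRCm38.p6, were matched for 29 of the 33 markers, the window nearest to the start of the row being taken; it lay within 300 bases of that start for 27 of them. The letters GAGGAAG, which hold the core bound by PU.1, the transcription factor of all these lineages, were found on either strand in 14 of 29 windows, against 13.6% of all 32851 windows. The letters TTGCNNAA, after the site of C/EBP factors, were found on either strand in 8 of 29 windows, against 10.8% of all windows. C/EBP letters were found in 7 of 15 neutrophil windows, 0 of 4 monocyte windows and 1 of 10 macrophage windows, while PU.1 letters were found in 8 of 15, 1 of 4 and 5 of 10 of them. The 8 neutrophil windows with PU.1 letters include Prtn3 and Ly6g, which lay 5191 and 1364 bases from the start of the row. Windows with the PU.1 letters included Elane, Mpo, Csf3r, S100a8, Marco and Mrc1, and those with the C/EBP letters included Ltf, Ngp, Fcnb and S100a9. Apoe, Cx3cr1, Ms4a7 and Cxcr2, the 4 markers with a p-value, held neither in this window. A match is no evidence of binding in these cells.

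**Figure D4:**
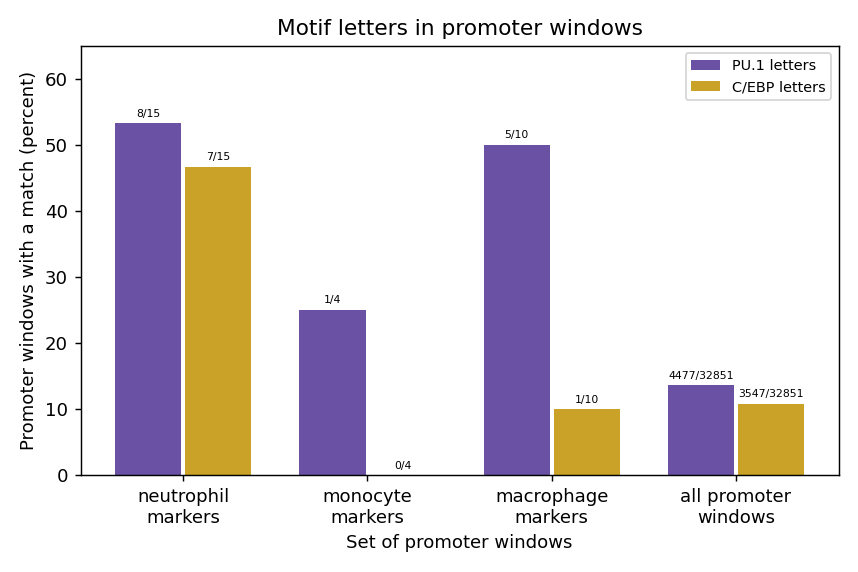
Percent of 300-base promoter windows (vertical axis) that hold the PU.1 letters or the C/EBP letters on either strand, for the 3 classes of marker genes and for all windows; numbers above the bars are windows with a match and windows searched. Neutrophil markers reach 8 of 15 and 7 of 15, against 13.6% and 10.8% of all windows. The 8 include Prtn3 and Ly6g, whose windows lie more than 300 bases from the start of the row.

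The windows below show 1 gene with both kinds of letters, 1 neutrophil gene with each kind alone and the macrophage marker with the largest size among those without a p-value. Capitals mark the matches to either motif, and the matches of the Mmp8 window do not overlap.
Mmp8, chr9:7558179-7558478, plus strand: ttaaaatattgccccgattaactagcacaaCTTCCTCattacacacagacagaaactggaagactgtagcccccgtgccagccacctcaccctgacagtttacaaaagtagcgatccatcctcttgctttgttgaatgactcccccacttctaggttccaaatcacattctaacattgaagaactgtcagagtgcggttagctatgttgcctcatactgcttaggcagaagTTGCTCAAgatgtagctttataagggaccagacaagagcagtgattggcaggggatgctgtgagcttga
S100a8, chr3:90668821-90669120, plus strand: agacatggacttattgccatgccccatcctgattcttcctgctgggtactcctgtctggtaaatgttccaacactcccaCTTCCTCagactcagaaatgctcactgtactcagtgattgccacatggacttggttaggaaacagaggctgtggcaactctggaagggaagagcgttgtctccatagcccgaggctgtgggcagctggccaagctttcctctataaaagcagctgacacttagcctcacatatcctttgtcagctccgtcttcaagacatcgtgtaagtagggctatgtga
Ltf, chr9:111019042-111019341, plus strand: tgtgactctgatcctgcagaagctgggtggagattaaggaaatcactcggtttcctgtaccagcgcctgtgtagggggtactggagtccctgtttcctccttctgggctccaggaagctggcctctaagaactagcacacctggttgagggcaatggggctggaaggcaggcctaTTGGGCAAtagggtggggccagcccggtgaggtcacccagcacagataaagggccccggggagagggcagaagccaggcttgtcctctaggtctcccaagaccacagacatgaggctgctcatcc
Marco, chr1:120504975-120505274, minus strand: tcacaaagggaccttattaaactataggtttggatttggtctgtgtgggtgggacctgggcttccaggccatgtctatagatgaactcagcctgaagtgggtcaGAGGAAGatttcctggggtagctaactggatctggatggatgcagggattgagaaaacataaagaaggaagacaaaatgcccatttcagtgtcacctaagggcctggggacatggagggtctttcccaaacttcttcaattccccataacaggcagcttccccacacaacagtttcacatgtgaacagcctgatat

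Other genes of the same cells were read from lists, again as counts. No p-value was given by the authors' deposited table for 22 of 23 further neutrophil genes with a row. A negative value was found for 19 of the 23, where 60.7% of all rows were negative. Of the 22 without a p-value, 6 had a size under 0.01 on the log2 scale. Their median size was 0.034, larger than the 0.0035 of the neutrophil markers without a p-value. Mmp9, the gene of gelatinase B, was among the negative genes of the list at -0.0079, and Ctsg, the gene of cathepsin G, among the 4 positive ones at 0.13 in the authors' deposited table. Cxcr1, the 1 with a p-value, was listed at -0.078 in the authors' deposited table (p = 0.849). Of 36 further monocyte and macrophage genes, 18 had no p-value. The other 18 had a median of -0.18 and none passed, where the median of all rows with a p-value was -0.092. Emilin2, an extracellular matrix protein of monocytes, was listed at 0.52 (p = 0.0290), F13a1, a clotting factor subunit, at -0.86 (p = 0.0502), Cd163, the haemoglobin scavenger receptor, at -0.65 (p = 0.0711) and Il1b at -0.48 (p = 0.115) in the authors' deposited table.

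The authors' deposited table left 8 of 23 myeloid transcription factors without a p-value, among them Irf8 (-0.16) and Klf4 (-0.14) of the monocyte lineage and Cebpb (-0.33). Spi1, the gene of PU.1, had one and was listed at 0.089 (p = 0.837), and Cebpa at 0.26 (p = 0.625) in the authors' deposited table. Gfi1, a repressor that neutrophil progenitors need, was the 1 factor that passed, and it fell 4.00-fold according to the authors' deposited table (adjusted p = 1.91e-06); it overlaps another gene model. Myb (0.39, p = 0.112), Bach2 (-0.51, p = 0.136) and Cebpd (-0.70, p = 0.171) in the authors' deposited table followed it by p-value without passing. Of the 15 with a p-value 10 were negative, and the median of the 15 was -0.30. Negative values made up 59.8% of all rows with a p-value.

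Growth factor receptors and ligands of myeloid cells lacked a p-value in 5 of 15 rows of the authors' deposited table, and none of the other 10 passed. Csf1, the ligand of Csf1r, had the lowest value at -1.20 in the authors' deposited table, without a p-value. Il6st, the shared signalling chain of the interleukin-6 family, was listed at -0.98 (p = 0.0363, adjusted p = 0.567), and Il10ra at -0.45 (p = 0.135) in the authors' deposited table. Il3ra, the receptor chain for the interleukin-3 of the medium, was listed at -0.35 (p = 0.246) and Flt3 at -0.42 (p = 0.300) in the authors' deposited table.

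Genes of the phagocyte oxidase, Fc receptors and complement had no p-value in 8 of 18 rows. Of the 18, 8 were negative, where 60.7% of all rows were. Of the oxidase, Cybb, its catalytic chain, was listed at -0.012, Cyba at 0.14 and Ncf1 at 0.13 in the authors' deposited table, all without a p-value. Rac2 (0.34, p = 0.167), Hcst (-0.23, p = 0.319), C1qbp (0.16, p = 0.332) and Tyrobp (0.44, p = 0.390) had the smallest p-values of the list in the authors' deposited table. Of the lysosome and lipid genes, the apolipoprotein gene Apoc1, on chromosome 7 like Apoe, was listed at -0.88 (p = 0.0601) in the authors' deposited table. The lipid exporter gene Abca1, on chromosome 4, was listed at 0.91 (p = 0.0685) in the authors' deposited table. Abcg1, another lipid exporter gene, was listed at 0.52 (p = 0.253) in the authors' deposited table. None of the 10 lysosome and lipid genes with a p-value passed, and 7 others had none.

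Mast cell genes served as the counterpart. The authors' deposited table gave all 18 a p-value and 13 a positive value, and the median was 0.095. Of all rows with a p-value, 59.8% were negative, and their median was -0.092. Of those rows 0.411% passed and 7.92% had an unadjusted p under 0.05. Kit was listed at -0.043 (p = 0.910), Fcer1a, the IgE-binding chain, at 0.090 (p = 0.815), Ms4a2, the beta chain of that receptor, at 0.10 (p = 0.789) and Cpa3 at 0.42 (p = 0.0983) in the authors' deposited table. Tpsb2, a tryptase gene, alone passed, and it rose 3.03-fold according to the authors' deposited table (adjusted p = 0.0149). Its relatives can share reads, which makes the value uncertain. Cma1, a chymase gene, was the other one of 2 under an unadjusted p of 0.05 and was listed at 0.97, 1.97-fold higher in the miR-9 line (p = 0.0176, adjusted p = 0.442), in the authors' deposited table. Srgn, the gene of the granule proteoglycan serglycin, was next after Cpa3 by p-value, at 0.35 (p = 0.183) in the authors' deposited table.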

How the data were processed

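RNA was sequenced from 3 Cpa3-Cre;miR-9∆fl/∆fl and 2 Cpa3-Cre samples, grouped by title. STAR, HTSeq, DESeq2, Cuffdiff and DESeq with GRCm38 and mm10 are named in the submitters' processing notes, with no versions or roles. The authors deposited a log2 fold change, the same fold as a signed linear score and a p-value per gene, plus the summed exon length. The header of the p-value does not say whether it is adjusted, and it was taken as unadjusted. The 5 columns of values per library match no label and were not used, so no test of expression, standard error or depth was computed, and the planned fits on counts were not made. The marker genes and lists were chosen with earlier results of these data known. Deposited p-values (24071) were adjusted by Benjamini-Hochberg with statsmodels 0.14.6 and called under 0.05; the step was tested on simulated data. Lists are described by counts and medians, with no test, leaving out symbols shared by rows (94 rows). All markers are named, and from each list the called genes and the 4 smallest p-values, with Kit, Fcer1a, Cpa3 and Ms4a2 in any case, except for 3 genes that are not reported here; other genes are examples chosen after their values were seen. Implied standard errors divide the fold change by the normal quantile of p. Of the 33 rows, 30 began and ended within 1000 bases of the GENCODE M21 gene. Since nothing shows separate mice or cultures, the p-values rest on a spread that may be technical. Python 3.11.15, pandas 2.3.3, numpy 2.4.6 and scipy 1.17.1 were used.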

Additional observations from a re-analysis of the deposited data

How the results depend on the processing

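No marker passed under any adjustment tried: at an adjusted p under 0.10, at the unadjusted 0.0001 of the design text, with blank p-values set to 1, without shared symbols, or by Benjamini-Yekutieli. Only the 4 markers with a p-value could pass in these settings, since the other 29 had none to judge. The adjusted p of Apoe ranged from 0.190 to 1. The count became 1 (Apoe) at an unadjusted p under 0.05, a setting added with the values in view. Over all genes the 99 calls became 233 at an adjusted p under 0.10 and 24 by Benjamini-Yekutieli. The share of rows without a p-value was 6.73% among protein-coding rows, against 5.78% of all rows. Accepting older symbols, 31 of 35 markers had none. No paired analysis was possible because the columns of values per library carry no replicate number of the labels; leave-one-out fits, DESeq2 size factors, filters and pseudocounts were not run for the same reason. Depth behind each gene was not analysed.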

Other observations

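Other cell types that marrow cultures can hold gave a mixed picture. Eosinophil genes resembled the neutrophil markers in form: the authors' deposited table left 7 of 9 rows without a p-value, and 6 had a size under 0.01 on the log2 scale. The median size of the 7 rows was 0.00068, smaller than the 0.0035 of the neutrophil markers without a p-value. Prg2, the gene of major basic protein, was listed at -0.00029 and Epx, eosinophil peroxidase, at -0.0012 in the authors' deposited table. Il5ra (-0.47, p = 0.271) and Ccr3 (-0.35, p = 0.422) were the 2 given one by the authors' deposited table. The authors' deposited table left 5 of 10 dendritic cell genes without a p-value, and the class II genes H2-Aa (-0.015), H2-Ab1 (-0.053), H2-Eb1 (-0.041) and Cd74 (-0.072) were among them. Ciita, which switches those genes on, had a p-value and was listed at -0.66 (p = 0.0871) in the authors' deposited table. Zbtb46 (-0.65, p = 0.123), Xcr1 (-0.40, p = 0.149) and Cd209a (-0.53, p = 0.320) followed it by p-value in the authors' deposited table. Of 4 basophil genes, the proteases Prss34 (0.52) and Mcpt8 (0.13) had no p-value, while Itga2 (-0.36, p = 0.444) and Cd200r3 (0.16, p = 0.568) had one in the authors' deposited table.

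All 6 lymphoid and all 6 erythroid and platelet genes with a row had a p-value, and none passed. The lymphoid genes all had negative values with a median of -0.53, where 59.8% of all rows with a p-value were negative. Cd3e (-0.53, p = 0.183), Cd4 (-0.67, p = 0.212) and Ncr1 (-0.58, p = 0.273) were among these genes in the authors' deposited table. The haemoglobin genes Hba-a1 (0.82, p = 0.124) and Hbb-bt (0.80, p = 0.126) were positive in the authors' deposited table, and reads of both can be shared with close copies. Car1 was negative (-0.44, p = 0.251) in the authors' deposited table.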
